A study of Sus scrofa with 12 samples.

Results

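Ventral annulus fibrosus libraries in which type II collagen transcripts took up a similar share of the counts were compared between Hyperloaded and Non-loaded Control pigs. The aim was to find which genes still differed between the loading groups at a similar share of these transcripts. The libraries were selected on a measured value: the count of COL2A1, the gene of the type II collagen chain, was divided by the total count of its library, and libraries from 5% to 25% were kept. This took 5 of the 12 libraries, namely control replicates 1, 5 and 6 and hyperloaded replicates 1 and 5. COL2A1 held 22.7%, 14.0% and 11.4% of the counts in these 3 control libraries and 12.48% and 9.17% in the 2 hyperloaded libraries. The nearest libraries left out were control replicate 3, at 27.6%, and hyperloaded replicate 3, at 2.94%. The other 3 control libraries reached from 27.6% to 44.8%, and the other 4 hyperloaded libraries from 0.236% to 2.94%, so the libraries outside the window did not overlap between the groups. Because COL2A1 chose the libraries, its own values are a description and carry no test. The study lists this collagen transcript among those lower after Hyperloading, so the choice rests on a gene that the study reports as changed.

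All pigs were Duroc crosses of both sexes, 3 to 4 months old, and all were anaesthetised. Hyperloaded pigs received manual loads on the third lumbar vertebra once every 1 or 2 min for 4 h, whereas Non-loaded Control pigs were anaesthetised without loads. The tissue was a ventral wedge of the annulus fibrosus next to the loaded vertebra. The 6 Hyperloaded libraries came from 4 pigs, since tissue of some pigs was powdered and sequenced a second time, and the labels do not say which libraries share a pig. Hyperloaded replicates 1 and 5 may therefore be 1 animal, in which case the p-values below measure the spread between libraries and not between pigs. Fits that take in all 6 Hyperloaded libraries count repeat libraries of a pig as independent, so this limit holds for their p-values in any case.

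The annulus fibrosus is the layered ring around the gel-like nucleus of the intervertebral disc. Its inner layers are fibrocartilage rich in type II collagen and aggrecan, and its outer layers are a ligament-like tissue of type I collagen. Mechanical stress, tissue damage and cytokines induce immediate-early genes, transcription factors and RNA-binding proteins that are switched on within minutes without new protein synthesis. Many of the same stimuli release the transcription factor NF-kB, whose targets include chemokines, adhesion molecules and its own inhibitors.

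Promoters of 3 genes whose counts stood higher in both matched hyperloaded libraries are printed to show the control elements usually discussed for these responses. Each run is the 250 bases before the annotated start of the gene in RefSeq (Sscrofa11.1), 5′ to 3′ in the direction of the gene, with motif matches in capitals. NFKBIA, the inhibitor that holds NF-kB in the cytoplasm, lies on the plus strand with its promoter at chr7:64507869-64508118, and the capitals mark a match to the NF-kB consensus. BTG2, an anti-proliferative immediate-early gene, lies on the plus strand at chr9:64033603-64033852 with a cyclic AMP response element (CRE) in capitals. IER2, an immediate-early transcriptional regulator, lies on the minus strand at chr2:65912492-65912741 with a CArG box, the element bound by serum response factor.
NFKBIA: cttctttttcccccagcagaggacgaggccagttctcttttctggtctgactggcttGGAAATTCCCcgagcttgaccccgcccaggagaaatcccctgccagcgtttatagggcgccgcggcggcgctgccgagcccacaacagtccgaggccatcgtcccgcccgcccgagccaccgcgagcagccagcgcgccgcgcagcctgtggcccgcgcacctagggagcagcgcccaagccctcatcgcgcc
BTG2: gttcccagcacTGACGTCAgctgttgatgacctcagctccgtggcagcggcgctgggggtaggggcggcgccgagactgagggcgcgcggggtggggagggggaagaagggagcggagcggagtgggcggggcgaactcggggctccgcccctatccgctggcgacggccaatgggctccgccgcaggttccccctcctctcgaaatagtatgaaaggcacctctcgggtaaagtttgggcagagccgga
IER2: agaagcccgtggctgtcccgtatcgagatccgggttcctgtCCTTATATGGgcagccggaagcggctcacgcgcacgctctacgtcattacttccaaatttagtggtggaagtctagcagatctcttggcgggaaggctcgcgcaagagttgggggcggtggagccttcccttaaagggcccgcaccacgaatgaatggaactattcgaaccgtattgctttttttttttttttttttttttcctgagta
The NF-kB consensus, searched on both strands, stood in 5.84% of 20664 promoters of the same length, the AP-1 motif TGANTCA in 5.48%, the CRE motif TGACGTCA in 1.63% and the CArG box in 1.27%. Among the 22 genes of the immediate-early, chemokine and NF-kB lists that met the thresholds below, with SELE added, all 22 had a promoter sequence: 4 held the NF-kB consensus, 3 the AP-1 motif, 2 the CRE and 1 the CArG box. These matches describe letters in a window and were not measured as binding sites.

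The 5 libraries held between 12483998 and 24828084 counts. The second marker, COL1A2, a chain of the type I collagen of the outer annulus, took up 9.18% of control replicate 1 but 18.9% and 17.9% of control replicates 5 and 6, against 20.4% and 19.5% of hyperloaded replicates 1 and 5. Matching on COL2A1 therefore left control replicate 1 with less than 1 COL1A2 count per COL2A1 count (a ratio of 0.405) and the other 4 libraries with ratios from 1.35 to 2.13. Control replicate 1 also stood apart over the transcriptome: the SD of the log2 difference over 9185 genes was 0.488 between control replicates 5 and 6 but 0.760 and 0.664 between replicate 1 and each of them, and 0.557 between the 2 hyperloaded libraries. Hyperloaded replicate 1 stood apart in a set of cartilage genes. MATN1, a cartilage matrilin, had 491 counts there and 1 or 2 in each of the other 4 libraries, MATN3 had 1061 against 1 to 33, and CYTL1, a cytokine-like protein of chondrocytes, had 701 against 0 to 2. None of these 3 was tested, since too few libraries held counts. Results that turn on control replicate 1 or hyperloaded replicate 1 are given with and without it. A fit without either hyperloaded library takes the spread from the controls alone and assumes that the lone hyperloaded library varies as they do.

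**Figure D1:**
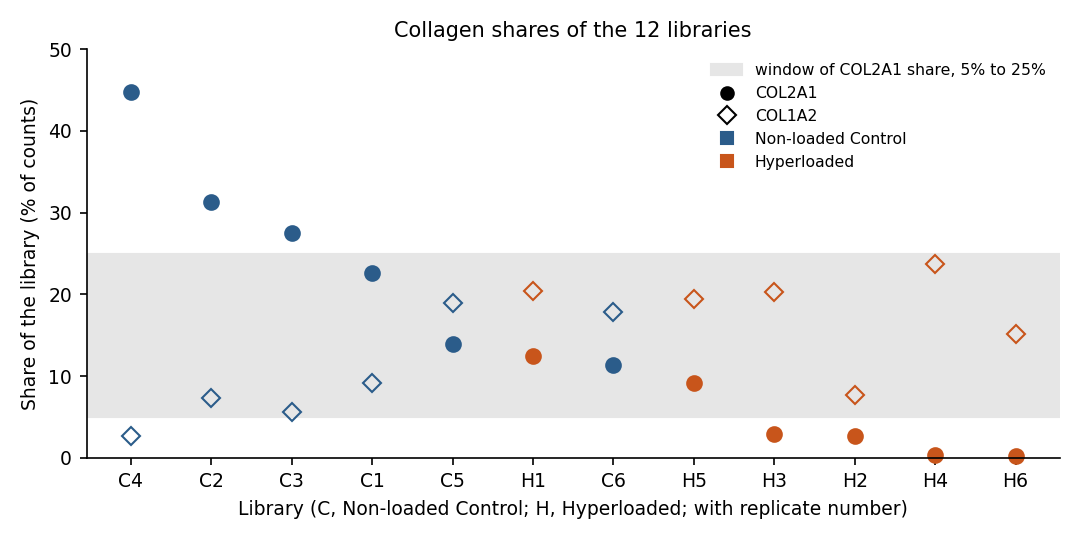
Share of the counts of each of the 12 libraries held by COL2A1 (filled circles) and COL1A2 (open diamonds), in percent, ordered by COL2A1. The grey band is the selection window from 5% to 25%, which holds the COL2A1 share of 3 control and 2 hyperloaded libraries, and control replicate 1 is the only one of the 5 with less COL1A2 than COL2A1.

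Markers of the tissue and of cells that a wedge can carry were read as lists. Cartilage matrix genes other than COL2A1 were abundant in every library, with a mean level from 8.08 to 8.91 log2 CPM (counts scaled to an equal effective library size) in the 5. Outer annulus genes ran from 9.00 to 9.46 log2 CPM in the controls and were 9.86 and 9.94 in the hyperloaded libraries. Skeletal muscle genes, 14 of 26 in the table, were low, their summed level being 86.7 to 292 CPM in the controls and 83.1 and 130 CPM in the hyperloaded libraries. Red blood cell genes summed to 12.4 CPM in control replicate 1 and to 280 to 657 CPM in the other 4 libraries. Macrophage genes differed too. The 26 of 30 macrophage and monocyte markers in the table, none of them at 0 in all 5 libraries, summed to 374, 78.9 and 107 CPM in control replicates 1, 5 and 6 and to 602 and 379 CPM in hyperloaded replicates 1 and 5. Control replicate 1 thus lay next to the hyperloaded libraries and the other controls well below. The 12 of 19 endothelial markers summed to 781, 600 and 859 CPM in the controls and to 546 and 506 CPM in the hyperloaded libraries. The sum rests largely on PECAM1, and the mean level of the same genes overlapped between the groups, at 4.83 and 4.23 log2 CPM in hyperloaded replicates 1 and 5 against 4.57 and 4.72 log2 CPM in control replicates 1 and 6, with control replicate 5 lowest. In bulk tissue, fewer cells of a type and less RNA per cell cannot be told apart, and the part of these cell markers in the differences below was not tested.

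**Figure D2:**
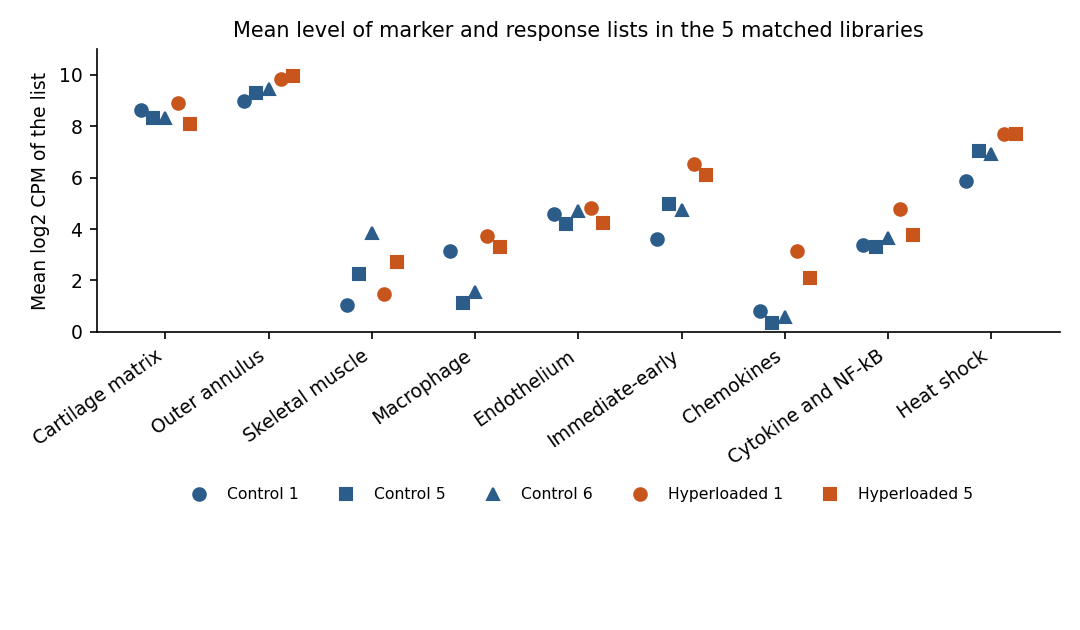
Mean log2 CPM of 9 marker and response lists in each of the 5 matched libraries (blue, control replicates 1, 5 and 6; orange, hyperloaded replicates 1 and 5). The immediate-early, chemokine and heat shock lists lay higher in both hyperloaded libraries than in the 3 controls, the cartilage list overlapped between the groups, and macrophage levels of control replicate 1 lay near those of the hyperloaded libraries.

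No gene passed the adjusted test. Of 12919 genes tested between the 2 hyperloaded and 3 control libraries with edgeR's quasi-likelihood test, 0 (0%) had a Benjamini-Hochberg adjusted p under 0.05. The smallest adjusted value was 0.346. At an unadjusted p under 0.05 there were 954 genes, 7.38% of those tested, 549 higher and 405 lower in the hyperloaded libraries. The result depended on the tool: on the same counts DESeq2's Wald test called 109 genes at an adjusted p under 0.05, 84 higher (0.65% of those tested) and 25 lower (0.194%), and limma voom called 2. For a description of size, the text below uses the calling rule of the study's methods, which asks for a difference of 2-fold or more with an unadjusted p no higher than 0.01. It was met by 119 genes in the higher direction (0.921%) and 56 in the lower (0.433%), and in all 175 the groups did not overlap. Non-overlap alone was common, with 1667 genes higher (12.9%) and 1623 lower (12.6%). An exact test of a single gene over 3 against 2 libraries could not give a 2-sided p below 0.1.

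Which libraries entered mattered. Without control replicate 1 the same thresholds took in 220 genes higher and 62 lower, whereas without hyperloaded replicate 1 they took in 76 and 36. Of the 175 genes, 36 stayed at these thresholds in each of the 5 fits that left out 1 library, 28 of them higher and 8 lower. In 2 of these fits a single hyperloaded library stood against the controls.

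The 7 libraries outside the window share no library with these 5, though the labels do not say whether any share a pig. There 1664 of 13380 genes were called higher (12.4%) and 1404 lower (10.5%) by edgeR at an adjusted p under 0.05, in a contrast where collagen share and loading cannot be told apart. Of the 111 genes that met the thresholds in the higher direction among the matched libraries and were also tested in the others, 69 (62.2%) were called higher there and 0 lower. Of the 52 in the lower direction, 21 (40.4%) were called lower and 0 higher. Read the other way, 1499 genes called higher in the other libraries had been tested in the matched ones. Of these, 81.3% had the same sign, against 48.1% of all genes tested in both sets. Without overlap 35.1% stood higher, against 12.9% of all genes, and 69 (4.6%) met the thresholds. Their median log2 fold-change was 0.33 in the matched libraries against 1.38 in the others. For the 1314 genes called lower the same sign was seen in 81.7%, against 51.8% of all genes tested in both sets. The median was -0.26 against -1.11. Without overlap 26.9% of the 1314 stood lower, against 12.6% of all genes, and 21 (1.6%) met the thresholds.

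Immediate-early genes stood higher in both hyperloaded libraries for nearly every member. All 21 tested members of the list had a positive log2 fold-change, with a median of 1.58 against -0.02 over all genes, 12 met the thresholds in the higher direction (0.921% of all genes did) and 0 in the lower, and in 19 the groups did not overlap (12.9% of all genes). DESeq2 called 10 of the 21 higher, against 0.65% of all genes. No member passed the adjusted edgeR test. EGR1, a zinc finger transcription factor induced by stretch and growth factors, had normalised counts of 17.3, 81.4 and 30.2 CPM in control replicates 1, 5 and 6 and 405 and 314 CPM in hyperloaded replicates 1 and 5. Both hyperloaded values were more than 3 times the highest control. The log2 fold-change was 3.07 ± 0.62 (SE, n = 3 and 2, edgeR adjusted p = 0.366), and DESeq2 gave an adjusted p of 7.11e-05. EGR2, a relative that EGR1-inducing signals also switch on, was at 0.635, 2.28 and 1.61 CPM in the controls and at 8.43 and 9.30 CPM in the hyperloaded libraries. FOS, the partner of JUN proteins in AP-1, was the most abundant of the group and scattered widely: 60.4, 433 and 250 CPM in the controls and 2575 and 778 CPM in the hyperloaded libraries, with a log2 fold-change of 2.76 ± 0.83 (SE) that missed the thresholds.

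JUNB, an AP-1 subunit, stood at 20.7, 61.1 and 55.1 CPM in the controls and at 331 and 243 CPM in the hyperloaded libraries, a log2 fold-change of 2.66 ± 0.46 (SE, edgeR adjusted p = 0.346). ZFP36, the tristetraprolin protein that binds AU-rich elements and speeds decay of cytokine mRNAs, was at 21.9, 43.9 and 51.9 CPM in the controls and at 325 and 168 CPM after loading. BTG2 was at 40.2, 85.8 and 64.4 CPM against 314 and 203 CPM. JUNB, ZFP36 and BTG2, but not EGR2, shared a pattern: control replicate 1 lowest, control replicates 5 and 6 higher, and hyperloaded replicate 1 highest. NR4A3, an orphan nuclear receptor, followed it at 1.59, 8.42 and 5.50 CPM against 46.6 and 18.3 CPM. DUSP1, the phosphatase that turns off MAP kinases, had a log2 fold-change of 1.58 ± 0.39 (SE), MYC one of 1.16 ± 0.29, IER5 one of 1.56 ± 0.31, IER2 one of 1.31 ± 0.27, MAFF one of 1.24 ± 0.28 and FOSL1 one of 1.01 ± 0.26. IER3 was the member nearest to 0, at 0.12 ± 0.73 (SE), its control values spanning 21.3 to 147 CPM. Summed over the 21 genes, the list held 559, 1640 and 1300 CPM in control replicates 1, 5 and 6 against 6334 and 3205 CPM in the hyperloaded libraries. Without control replicate 1 the median of the list was 1.39 and 12 members met the thresholds, and without hyperloaded replicate 1 the median was 1.34 but only 4 did.

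Chemokines and NF-kB feedback genes were the next group. Of 34 listed chemokines and their receptors 18 were in the table and 10 were tested. All 10 had a positive fold-change, with a median of 1.91. Of these, 5 met the thresholds in the higher direction (0.921% of all genes) and 0 in the lower (0.433%). CCL2, the monocyte-attracting chemokine, was at 1.55, 4.39 and 3.32 CPM in the controls and at 65.0 and 16.4 CPM in the hyperloaded libraries. Hyperloaded replicate 1 was thus about 4 times hyperloaded replicate 5, yet both were well above every control, and the log2 fold-change was 3.77 ± 0.65 (SE, edgeR adjusted p = 0.346, DESeq2 adjusted p = 2.44e-06). CXCL8, the neutrophil-attracting interleukin-8, was near the detection limit in the controls at 0.106, 0.351 and 0.996 CPM and reached 7.09 and 3.61 CPM after loading. CCL3L1, a chemokine of activated myeloid cells, was at 0.175 to 0.282 CPM in the controls and at 3.07 and 0.882 CPM in the hyperloaded libraries. CXCL2 had a log2 fold-change of 2.21 ± 0.58 (SE) that rested on hyperloaded replicate 1, at 25.5 CPM against 5.85 CPM in replicate 5 and at most 4.30 CPM in the controls. CXCL14, a chemokine made constitutively in many tissues, stood at 6.84, 2.02 and 6.92 CPM against 19.8 and 17.6 CPM. Leaving out hyperloaded replicate 1 kept the median of the list at 1.41 but only 1 member at the thresholds.

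Among 20 tested cytokine and NF-kB feedback genes the median log2 fold-change was 0.81. The thresholds were met by 4 in the higher direction (0.921% of all genes) and 0 in the lower (0.433%). These 4 were the inhibitors NFKBIA and NFKBIE, TNFAIP3, whose A20 enzyme shuts NF-kB signalling off, and IRF1, a transcription factor of interferon and NF-kB responses. NFKBIA was at 43.5, 37.4 and 48.1 CPM in the controls and at 179 and 87.3 CPM after loading, a log2 fold-change of 1.63 ± 0.31 (SE, edgeR adjusted p = 0.346, DESeq2 adjusted p = 0.0012). The controls of NFKBIA lay close together and control replicate 1 was between the other controls. TNFAIP3 was at 9.06, 12.7 and 17.2 CPM against 46.4 and 34.7 CPM, and NFKBIE at 10.6, 14.4 and 13.3 CPM against 50.3 and 25.8 CPM. IRF1 was at 12.3, 15.7 and 14.3 CPM against 71.0 and 24.3 CPM. SELE, the E-selectin by which activated endothelium catches leukocytes, stood at 2.36, 5.61 and 3.79 CPM in the controls and at 50.4 and 13.9 CPM after loading (log2 fold-change 3.08 ± 0.58 SE), the opposite direction to most other endothelial markers described below. CD83, an activation marker of dendritic and other immune cells, was at 1.67 to 3.07 CPM against 15.1 and 6.66 CPM, and GPR183, the oxysterol receptor that guides immune cells, at 0.948 to 1.80 CPM against 16.8 and 6.26 CPM.

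**Figure D3:**
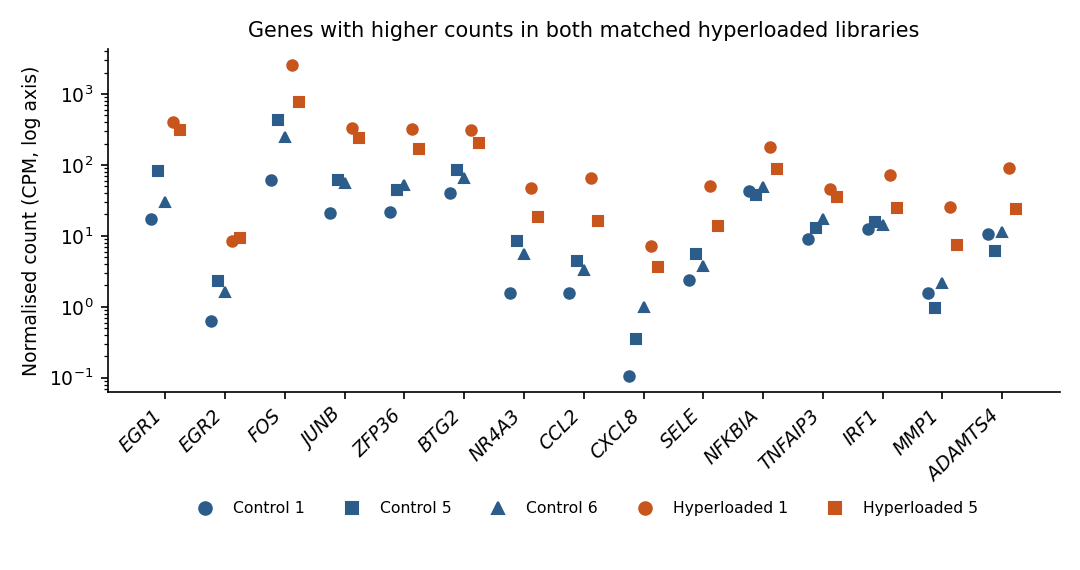
Normalised counts (CPM, log axis) of 15 genes in the 5 matched libraries, 1 symbol per library (blue, controls; orange, hyperloaded). For every gene both hyperloaded libraries lie above the 3 controls. The separation is wide for EGR1 and CCL2 and narrow for FOS and IRF1.

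Macrophage and monocyte markers were all higher in the mean of the hyperloaded libraries, but the groups often met at control replicate 1. All 23 tested members had a positive log2 fold-change, with a median of 1.22. In 14 the hyperloaded libraries lay higher without overlap (12.9% of all genes), and 2 met the thresholds in the higher direction (0.921% of all genes). These 2 were SPI1, the PU.1 transcription factor that specifies myeloid cells, and CD53, a leukocyte tetraspanin. SPI1 was at 8.64, 4.82 and 4.69 CPM in control replicates 1, 5 and 6 and at 13.2 and 15.6 CPM after loading. CD53 was at 10.4, 3.51 and 4.32 CPM against 28.3 and 16.3 CPM. MRC1, the mannose receptor of tissue macrophages, had 12.8 CPM in control replicate 1, 0.877 and 2.61 CPM in the other controls and 34.9 and 14.0 CPM in the hyperloaded libraries, so that its gap closed at control replicate 1. Without that library the median of the list was 2.33 and 17 of the 23 met the thresholds in the higher direction. Of all 12977 genes in that fit 220 did. Without control replicate 5 or control replicate 6, 0 of the list did, and the medians were 0.99 and 1.04. Without hyperloaded replicate 1 or hyperloaded replicate 5 the medians were 1.11 and 1.34. These values stand beside those of CCL2, CCL3L1, CD83 and GPR183, which leukocytes also express.

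Matrix-degrading enzymes differed one by one and not as a group. Of 30 tested proteases and inhibitors, 4 met the thresholds in the higher direction (0.921% of all genes) and 1 in the lower (0.433%). The median log2 fold-change was 0.34. MMP1, the collagenase that cuts fibrillar collagen, was at 1.59, 0.965 and 2.13 CPM in the controls and at 25.9 and 7.38 CPM in the hyperloaded libraries, a log2 fold-change of 3.38 ± 0.56 (SE, edgeR adjusted p = 0.346, DESeq2 adjusted p = 1.04e-05). ADAMTS4, an aggrecan-cutting enzyme, was at 10.7, 6.14 and 11.2 CPM against 91.3 and 23.9 CPM. PLAU, the urokinase that activates plasminogen, was at 11.8, 14.0 and 24.6 CPM against 105 and 41.2 CPM. CTSL, a lysosomal cysteine protease, had a smaller and tighter difference, from 2.61 to 4.08 CPM in the controls and 9.44 and 8.10 CPM after loading. For MMP1, ADAMTS4 and PLAU hyperloaded replicate 1 lay well above hyperloaded replicate 5, and MMP1 alone of these 4 stayed at the thresholds in each fit without 1 library. ADAMTS1, a further aggrecanase, overlapped between the groups, at 12.97, 72.7 and 38.3 CPM against 129 and 56.9 CPM. ADAMTS14, a procollagen N-proteinase, was the gene in the lower direction, at 1.71 to 1.93 CPM against 0.782 and 0.802 CPM. HTRA3, a secreted serine protease, was lower at 164 and 160 CPM against 261 to 346 CPM, a log2 fold-change of -0.93 ± 0.22 (SE) that did not reach 2-fold.

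A potassium channel gene and a bone regulator also stood apart in both hyperloaded libraries. KCNT2, a sodium-activated potassium channel, was at 1.55, 1.23 and 1.14 CPM in the controls and at 4.86 and 5.69 CPM after loading, a log2 fold-change of 2.00 ± 0.29 (SE, edgeR adjusted p = 0.346, DESeq2 adjusted p = 0.000438). TNFRSF11B, osteoprotegerin, the decoy receptor that restrains osteoclasts, was at 6.45, 2.37 and 4.88 CPM against 20.6 and 30.2 CPM. It had no such difference in the other libraries, where its log2 fold-change was -0.11 (edgeR adjusted p = 0.923), and the test of the difference between the matched and the other libraries gave 2.57 with an unadjusted p of 0.0308 and an adjusted p of 0.276.

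Single genes of hypoxia, energy use and the clock stood higher, and the mean levels of their lists by less. NFIL3, a basic leucine zipper repressor tied to the clock, was at 34.5, 40.0 and 46.7 CPM in the controls and at 97.2 and 161 CPM after loading. BHLHE40, a clock and hypoxia repressor, was abundant at 208, 233 and 433 CPM against 1184 and 992 CPM. ANGPTL4, a lipoprotein lipase inhibitor induced by hypoxia and fasting, was at 19.6, 17.4 and 37.7 CPM against 101 and 103 CPM (log2 fold-change 2.03 ± 0.34 SE). For these 3 genes both hyperloaded libraries were at least 2 times the highest control. NDRG1, a stress-inducible gene of hypoxic cells, was at 44.3 to 48.2 CPM against 78.6 and 108 CPM, PFKFB3, which drives glycolysis, at 25.8 to 31.2 CPM against 45.6 and 74.0 CPM, and the glucose transporter gene SLC2A3 at 68.3, 155 and 279 CPM against 805 and 509 CPM. STC1, the secreted stanniocalcin, was at 19.5, 7.02 and 32.3 CPM against 134 and 62.3 CPM. Of 33 hypoxia and glycolysis genes tested, 29 had a positive fold-change, and the median was 0.26. Without overlap 13 stood higher (12.9% of all genes) and 2 lower (12.6%). Their mean level was 5.67 to 5.99 log2 CPM in the controls and 6.15 and 6.41 log2 CPM in the hyperloaded libraries. The thresholds were met by 2 in the higher direction (0.921% of all genes). Of 19 glucocorticoid response and clock genes 1 met them, BHLHE40, and the median was 0.04. Here 13 had a positive fold-change and 6 a negative one, and without overlap 4 stood higher and 1 lower. The mean level was 5.04 to 5.23 log2 CPM in the controls and 5.47 and 5.34 log2 CPM in the hyperloaded libraries. Some identifiers with no symbol are described in the study's sheets. That of heme oxygenase 1, the inducible enzyme of heme breakdown, was at 5.54, 11.5 and 12.3 CPM against 52.4 and 59.0 CPM, with a log2 fold-change of 2.52 ± 0.34 (SE), and that of tribbles pseudokinase 1 at 0.529 to 1.14 CPM against 6.37 and 4.73 CPM.

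Heat shock chaperones were higher in both hyperloaded libraries for most members, by less than the immediate-early genes. Of 20 tested, 19 had a positive fold-change, and the median log2 fold-change was 0.84. In 17 the hyperloaded libraries lay higher without overlap (12.9% of all genes), and 3 met the thresholds in the higher direction (0.921% of all genes). CRYAB, a small heat shock protein, was at 109, 231 and 197 CPM in the controls and at 491 and 666 CPM after loading. BAG3, the co-chaperone that links strained cytoskeleton to autophagy, was at 40.1, 97.1 and 84.9 CPM against 261 and 226 CPM. DNAJB4 had a log2 fold-change of 1.09 ± 0.30 (SE), HSPA4 one of 0.68 ± 0.17 and HSPH1 one of 2.13 ± 0.63. Summed over the list, control replicate 1 held 1847 CPM, control replicates 5 and 6 held 6155 and 5421 CPM, and the hyperloaded libraries held 12280 and 10540 CPM. Control replicate 1 lay lowest, as it did for the immediate-early genes. Without it the median of the list was 0.64 with 5 members higher at the thresholds (220 of all 12977 genes in that fit). Without hyperloaded replicate 1 the median was 0.92 with 1 member, and without hyperloaded replicate 5 it was 0.72 with 0.

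Against 119 genes in the higher direction, 56 met the thresholds in the lower direction. MOXD1, a copper-dependent monooxygenase related to dopamine beta-hydroxylase, had the smallest p in this direction among genes with a symbol. It was at 111, 59.6 and 66.2 CPM in the controls and at 17.9 and 14.7 CPM in the hyperloaded libraries, a log2 fold-change of -2.28 ± 0.33 (SE, edgeR adjusted p = 0.346, DESeq2 adjusted p = 1.44e-07). KCNA1, a potassium channel opened by voltage, was at 13.5, 8.33 and 8.68 CPM against 1.96 and 2.89 CPM, and DESeq2 gave it an adjusted p of 9.22e-05. SMDT1, a subunit of the mitochondrial calcium uniporter, was at 18.3 to 21.8 CPM against 7.76 and 10.0 CPM. WNT11, a non-canonical Wnt ligand, was low in all 5 libraries, at 0.854 to 1.40 CPM against 0.223 and 0.241 CPM. The other members of the 15 named in this direction were SLC35G1, ST6GALNAC2, NHERF2, SH2D3C, FHOD1 and ARAP3, with log2 fold-changes from -1.45 to -1.03, and the endothelial genes that follow.

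Several of the lower genes are known from endothelial cells. GATA2, a transcription factor of endothelium and blood progenitors, was at 9.17, 9.12 and 9.44 CPM in the controls and at 3.46 and 4.09 CPM in the hyperloaded libraries, a log2 fold-change of -1.29 ± 0.21 (SE, edgeR adjusted p = 0.346). NOTCH4, the Notch receptor of endothelium, was at 45.3, 29.7 and 45.8 CPM against 16.0 and 17.2 CPM. RAMP2, the adrenomedullin co-receptor, was at 35.96, 26.5 and 34.5 CPM against 15.8 and 16.3 CPM. TMEM204, a vascular membrane protein, was at 13.6, 14.4 and 16.6 CPM against 2.79 and 5.53 CPM, KANK3 at 10.8 to 17.0 CPM against 4.86 and 5.77 CPM, and EXOC3L1 at 7.45 to 10.7 CPM against 3.24 and 3.69 CPM. These 6 came from the genes at the thresholds, all of which had groups that did not overlap, and were put together here after their values were seen. The fixed list of endothelial markers follows. Of the 11 endothelial markers tested, 5 had an unadjusted edgeR p under 0.05 in the lower direction and 2 in the higher. Over all genes 7.38% had such a p in either direction. SELE, higher, was the 1 that met the thresholds, and the median log2 fold-change was -0.63. TIE1, an endothelial receptor kinase, was at 31.8, 25.1 and 37.7 CPM against 15.9 and 19.0 CPM, and PECAM1, the CD31 junction protein, at 444, 294 and 413 CPM against 233 and 217 CPM. ESAM, a junction molecule, had a log2 fold-change of -0.81 ± 0.26 (SE). Leaving out control replicate 6 moved the median of the list to -0.32.

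**Figure D4:**
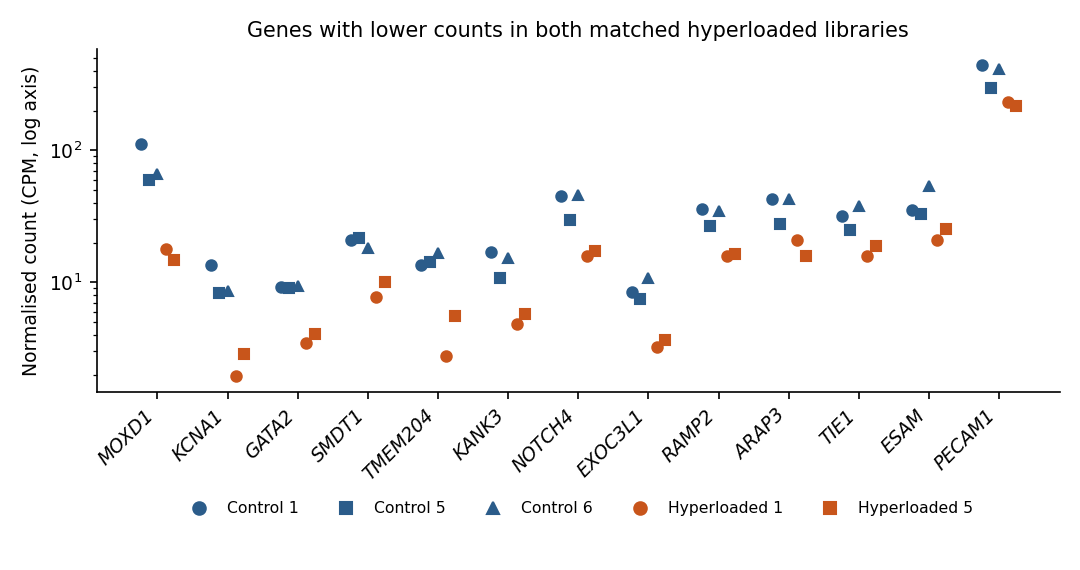
Normalised counts (CPM, log axis) of 13 genes in the 5 matched libraries (blue, control replicates 1, 5 and 6; orange, hyperloaded replicates 1 and 5). Both hyperloaded libraries lie below the 3 controls for every gene, with the widest gap for MOXD1 and KCNA1 and a narrower one for PECAM1.

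Cartilage matrix genes, in the libraries chosen for a similar COL2A1 share, showed no common shift with all 5 libraries in the fit. They accompany COL2A1, on which the libraries were chosen, so these values are a description. Of 21 tested, 0 met the thresholds in the higher direction (0.921% of all genes did) and 1 in the lower (0.433%). The median log2 fold-change was -0.04. It was -0.32 without hyperloaded replicate 1 and 0.18 without hyperloaded replicate 5 (24 genes tested). With a wider window of COL2A1 share, from 2.5% to 30%, it was -0.78. In the other libraries 15 of the 21 were called lower (10.5% of all genes) with a median of -2.83. ACAN, the aggrecan core protein, was at 7063, 4226 and 4191 CPM in the controls and at 3101 and 6005 CPM in the hyperloaded libraries. The groups overlapped, and the log2 fold-change was -0.18 with a 95% interval from -1.28 to 0.91, so that a 2-fold lower level lay inside the interval. COL11A1, a chain of the minor fibril collagen XI, had a log2 fold-change of -0.04 (95% interval -0.89 to 0.81), and COMP, a matrix glycoprotein, one of -0.18 ± 0.35 (SE). COL11A2 was lower in both hyperloaded libraries, at 2116 and 1991 CPM against 2262 to 4287 CPM, by -0.56 (95% interval -1.48 to 0.36) in the matched libraries and by -3.52 in the others. Its difference between the 2 sets was 2.98 ± 0.50 (SE) on the log2 scale. The sets were chosen on COL2A1 share, so a difference was built in for genes that go with COL2A1, and no test is read from it. S100A1, a calcium-binding protein of chondrocytes, was the member that met the thresholds, at 134, 86.4 and 70.8 CPM against 39.1 and 47.2 CPM. CILP, a protein of the intermediate cartilage layer, scattered from 534 to 2564 CPM in the controls and was 114 and 688 CPM after loading. FRZB, a secreted Wnt antagonist, rested on hyperloaded replicate 1, at 135 CPM there against 5.61 CPM in replicate 5 and 3.68 to 6.80 CPM in the controls, like the 3 cartilage genes named above for that library.

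**Figure D5:**
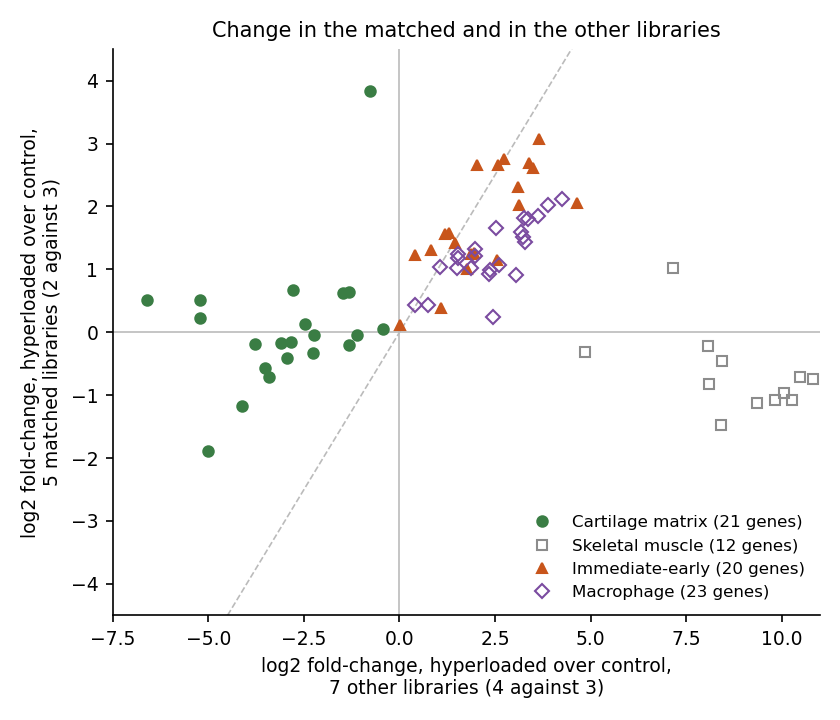
Log2 fold-change of hyperloaded over control in the 7 other libraries (horizontal axis) and in the 5 matched libraries (vertical axis) for the tested genes of 4 lists, with equal change on the dashed line. Most cartilage genes lie left of 0 but near 0 vertically and muscle genes far right, while the immediate-early and macrophage genes all lie above 0 on the vertical axis and most of them right of 0.

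Outer annulus genes had small positive differences for the most part. Of 21 tested, 19 had a positive fold-change, and the median was 0.43. In 9 the hyperloaded libraries lay higher without overlap (12.9% of all genes). EGR1 and THBS4 were the 2 that met the thresholds in the higher direction (0.921% of all genes). Without hyperloaded replicate 1 the median was 0.34 and 0 met them, and with the COL1A2 to COL2A1 ratio as a covariate over all 12 libraries the median was 0.07. THBS4, a tendon thrombospondin, was at 183, 213 and 358 CPM in the controls and at 697 and 499 CPM after loading. TNMD, the tenomodulin of tendon cells, was at 33.1, 18.9 and 117 CPM against 239 and 137 CPM, and KERA, a small proteoglycan, at 5.89, 4.91 and 19.8 CPM against 38.7 and 20.5 CPM. For both, hyperloaded replicate 5 barely exceeded control replicate 6. In the other libraries the log2 fold-changes were 6.35 for TNMD and 6.12 for KERA. COL1A2, the second marker, had a log2 fold-change of 0.43 ± 0.77 (SE) and overlapped between the groups. Control replicate 1, with the lowest COL1A2 share, was not the lowest control for TNMD or KERA.

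The genes that the study tabulates were chosen from results on these samples, so their directions are not independent evidence. Of 23, 19 were tested here. The thresholds were met by 2 in the higher direction (CCL2 and ADAMTS4, 0.921% of all genes) and 1 in the lower (KCNA1, 0.433%). In the other libraries 8 were called higher (12.4% of all genes) and 11 lower (10.5%). Of those called higher in the other libraries, TNMD, described above, and 4 further genes stood above every control: CCL4, a chemokine of myeloid cells, was at 0.106, 0.614 and 0.996 CPM against 2.96 and 1.52 CPM, IGF1 at 3.35 to 5.22 CPM against 16.5 and 6.34 CPM, SRGN, a proteoglycan of leukocyte granules, at 14.5, 1.84 and 5.17 CPM against 23.4 and 15.2 CPM, and AQP9, a water and glycerol channel, at 0.569 to 3.03 CPM against 5.36 and 3.53 CPM. The margin was small for SRGN and AQP9. On the other side FBXO2, SLC6A12, TPD52L1, EPS8L2 and GAL3ST3 had log2 fold-changes from -2.24 to -1.13 in the matched libraries against -5.53 to -4.55 in the others. GAL3ST3, a sulfotransferase, was at 0.522 to 1.14 CPM against 0.112 and 0.241 CPM, and it missed the thresholds with an unadjusted p of 0.0103. FBLN7, a cell adhesion protein, was at 165 to 307 CPM in the controls and 305 and 163 CPM in the hyperloaded libraries, a log2 fold-change of 0.08 ± 0.38 (SE) in the matched libraries, against -1.98 in the others.

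Whether the difference between the loading groups was the same in the matched and the other libraries was tested over all 12. The sets were chosen on COL2A1 share, so genes that go with COL2A1 differ between them by construction. In the other libraries loading and collagen share cannot be told apart. The interaction called 10 of 13585 genes (0.0736%) at an edgeR adjusted p under 0.05 and 2096 at an unadjusted p under 0.05. No immediate-early or NF-kB gene of the lists was among the 10. The difference on the log2 scale was -0.58 ± 0.94 (SE) for EGR1, 0.07 ± 0.63 for JUNB, -0.76 ± 0.52 for NFKBIA, -0.21 ± 0.66 for SELE and -1.84 ± 0.84 for CCL2, with edgeR adjusted p from 0.323 to 0.969. That these missed the threshold does not show equal effects. A fit of all 12 libraries with the log2 COL2A1 share as a covariate called 6 genes, all higher after loading: CCL2 (log2 fold-change 4.30 ± 0.59 SE), SELE (3.39 ± 0.50), ZFP36 (2.54 ± 0.38), and the identifiers described as heme oxygenase 1 (2.77 ± 0.42), pannexin 1 (2.38 ± 0.36) and zinc finger protein 36 homolog (2.53 ± 0.38), each with an edgeR adjusted p of 0.0492. With the COL1A2 to COL2A1 ratio as the covariate the same test called 0, with the lowest adjusted p at 0.178. Both fits share the 5 libraries with the comparison above and are not independent of it. They and the test of the difference count repeat libraries of a pig as independent, so their p-values do not measure the spread between pigs.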

How the data were processed

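Poly(A) RNA of 12 ventral annulus fibrosus wedges was sequenced without strand information. Per the paper's methods and the submitters' notes, the authors ran CASAVA, aligned reads to Sscrofa11.1 with 2 mismatches allowed in JMP Genomics and deposited estimated counts per Ensembl gene, which were rounded here to whole numbers. The file holds 22198 genes. Of these, 11700 (52.7%) were named by a table of gene names and 98 more from the paper's sheets, which hold genes the study called. The libraries, gene lists and genes named were chosen with earlier results of these data known.

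A gene was kept if all libraries of either group held 10 or more counts, and tested by quasi-likelihood in edgeR 4.0.16 (R 4.3.3, TMM factors from 0.912 to 1.14, Benjamini-Hochberg over all genes tested), and DESeq2 1.42.0 and limma 3.58.1 were run as alternatives. The biological coefficient of variation was 27.5% and the median SE of a log2 fold-change 0.269. Named were up to 15 genes with a symbol in each direction, at a mean of at least 5 CPM and the study's thresholds, ordered by unadjusted p since none passed the adjusted test, together with the genes the study tabulates and up to 4 tested members of each list by smallest p. Items withheld here, 1 gene among the 15 and 1 promoter, are not reported. Members beyond these were named after their values were seen. Scripts were tested on simulated data. Lists with no result in the text had at most 1 member at the thresholds in each direction. Alternatives were other scalings, filters and tools, covariates, a wider window, replicate numbers as a block, and each library left out.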

Additional observations from a re-analysis of the deposited data

Results flagged for a closer look

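Among the 6 hyperloaded libraries, the mean level of the outer annulus list was 8.84 log2 CPM in hyperloaded replicate 2, far below the other 5 at 9.70 to 9.94. The 2 matched libraries were at 9.86 and 9.94 and were not the ones that stood apart. A gap just large enough to be flagged is met by chance in about 1 in 20 groups of samples, and several lists were looked at.

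For 10 genes the difference between the loading groups was not the same in the matched and the other libraries (edgeR adjusted p from 0.041 to 0.0443). In the other libraries loading and collagen share cannot be told apart, so these are not differences of a loading effect alone. The difference on the log2 scale (matched minus other) was 2.31 for PTK7, 2.20 for HTRA2 and 3.799 for CA9, genes that were lower after loading in the other libraries. It was -4.02 for FST, -3.40 for MAP4K1 and -3.14 for PLBD1, which were higher there. For PLIN1 it was -12.18, for PLIN4 -10.90 and for NLGN1 -7.47, but these 3 had too few counts to be tested in the matched libraries alone, and their size depends on counts near 0. In the matched libraries CA9, carbonic anhydrase 9, had a log2 fold-change of -0.26 against -4.05 in the others, and HTRA2, a mitochondrial protease, -0.05 against -2.24.

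For ENSSSCG00000013669 the difference was -9.16, and it came from the matched libraries. Its counts were 88, 41 and 75 in control replicates 1, 5 and 6 and 0 in hyperloaded replicates 1 and 5, while the other 7 libraries held 53 to 159. Against a floor of 3 counts per library it was at least 12.9-fold lower.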

How the results depend on the processing

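The count of 0 calls between the matched libraries held under the other scalings, the other count filters, the wider window and the replicate block. It also held in 1 fit of all 12 libraries split by loading group and set. The 175 genes at the study's thresholds became 140 to 236 under these and the other tools and covariates, the wider window apart. Leaving out the libraries lacking raw reads, control replicate 6 and hyperloaded replicate 1, left hyperloaded replicate 5 as the only hyperloaded library. The spread then came from the controls alone, and calls are not counted. The median log2 fold-change there was 1.52 for the immediate-early list, 1.42 for chemokines, 0.52 for cytokine and NF-kB genes and 0.97 for heat shock chaperones. DESeq2 called 109, limma voom 2 and the COL2A1 covariate 6, and the wider window from 2.5% to 30% put 402 at the thresholds. Leaving out 1 library gave 0 to 6 calls and 112 to 282 genes at the thresholds. Of the 175 genes, 52 stayed without hyperloaded replicate 1 and 108 to 118 without any 1 control. For the loading effect in the other libraries the 3068 calls became 1189 to 3260 with 1 library left out, with 1189 without control replicate 2, 1213 without replicate 4 and 1517 without replicate 3, and 1714 without hyperloaded replicate 6. The 10 differing genes became 6 with no count minimum and 0 to 96 with 1 library left out, 96 without hyperloaded replicate 3.

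The replicate block gave 0 calls and 236 genes at the thresholds for the matched libraries, 1021 calls for the others and 4 for the difference. The numbers name libraries only, and same-numbered libraries deviated together weakly (r = 0.106 and 0.111 over genes, 2 pairs).

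Directions turned for 7 of the named genes, 5 of them near 0. ACAN was 0.19 with the COL2A1 covariate, 0.26 with the collagen ratio, 0.08 without libraries lacking raw reads and -0.75 to 0.22 with 1 library left out. COL11A1 ran from -0.27 to 0.13 and COMP from -0.36 to 0.04 with 1 library left out. FBLN7 was 0.00 by limma voom, -0.01 with the COL2A1 covariate and with the block, -0.14 with the ratio, -0.53 in the wider window, -0.54 without libraries lacking raw reads and -0.44 to 0.45 with 1 left out. IBSP, at -1.44 in the matched libraries, was 1.34 and 0.30 with the covariates, IER3 -0.25 with the ratio and in the wider window and -0.38 to 1.12 with 1 left out, and SCRG1, at -0.71, was 0.10 with the COL2A1 covariate. The cause was not tested. Genes with few counts, and all comparisons of 3 against 2 libraries, have wide errors.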

Other observations

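Genes read in only 1 of the matched groups had no symbol. Of the 175 genes at the study's thresholds 4 were at 0 in both hyperloaded libraries and 3 in all 3 controls. ENSSSCG00000026553 had 15 and 13 counts in hyperloaded replicates 1 and 5 and 0 in the other 10 libraries, and ENSSSCG00000013669 was at 0 in these 2 libraries alone. ENSSSCG00000022670 had 66 and 33 counts in hyperloaded replicates 1 and 5 and 0 in the 3 controls, at least 10.06-fold higher against 3 counts per library, but 9 and 20 counts in control replicates 2 and 4.

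Another set of genes separated the matched controls from each other. For 4 genes without a symbol, control replicates 1 and 6 were near 0 and the other 10 libraries held at least 100 counts. ENSSSCG00000012178 had 0 counts in control replicate 1 and 1 in control replicate 6, against 684 in control replicate 5 and 1559 and 962 in hyperloaded replicates 1 and 5. ENSSSCG00000026430 had 37 and 18 counts against 1812 to 3477 in the other 10. The matched controls therefore differed among themselves in genes for which both hyperloaded libraries were alike, and what sets these genes was not tested.

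Counts were identical in all 12 libraries for 1255 identifiers that share them with another, 6.6% of those with a count. Of the 175 genes at the thresholds 4 were such identifiers, in 2 sets (B3GNT2 and KCTD4, each with an unnamed identifier), so their reads cannot be assigned to 1 gene.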
